A study of Mus musculus with 6 samples.

Results

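Mitochondrial ribosomal proteins were followed as a gene family in epididymal white adipose tissue (WAT), the fat pad beside the epididymis. Members were all probe sets with exactly 1 gene symbol that starts with Mrpl or Mrps and a number, where Mrpl names the large and Mrps the small ribosomal subunit. This gave 74 of the 12393 genes on the array, read by 127 of its 22690 probe sets, 47 of the large subunit (88 probe sets) and 27 of the small subunit (39 probe sets). A further 3 probe sets that hold a member together with another gene were left out. The study compared wild-type with clock-deficient mutant mice, and the arrays are of its wild-type male C57BL/6 mice of 9 to 11 weeks. It asked whether the circadian clock mediates metabolic effects of sleep restriction of the kind met in shift work. The TSR (timed sleep restriction) group was kept awake by gentle handling for 6 h per day, from Zeitgeber time (ZT) 0 to ZT6, on 5 days, and the control group was not handled in this way. Both groups gave tissue at ZT18, in the middle of the dark phase, and carried no transgene. RNA was measured on Affymetrix Mouse Genome 430A 2.0 arrays, with 3 control and 3 TSR arrays, named here by group and number. Whether an array held a single animal or a pool is not stated, so the p-values speak only of variation among these arrays, which may be technical.

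The mitochondrial ribosome (mitoribosome) translates the few messages of the mitochondrial genome, which encode core subunits of the respiratory chain and ATP synthase. Its RNA is made inside the organelle, but its proteins are encoded in the nucleus, translated in the cytosol and imported. Some of them descend from bacterial ribosomal proteins and others arose only in mitochondria. In fat cells mitochondria burn fatty acids and supply precursors for making fat.

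Among the 74 genes, 27 were called higher and 9 lower after TSR, and 38 were not called, when each gene was read by its brightest probe set. Of all 8619 genes tested in the same fit, 24% were called higher and 23% lower. The members called higher made up 36.5% of the family and those called lower 12.2%. Changes were small: the median log2 fold change of the 74 genes was 0.11, against 0.01 over all genes, and single genes ranged from -0.43 (Mrpl52) to 0.55 (Mrpl10). A call is an adjusted p under 0.05 in limma on log2 signals, with Benjamini-Hochberg adjustment over 14707 probe sets, and the brightest probe set is the one with the highest mean log2 signal. The 3 TSR signals lay outside the range of the 3 control signals in 46 of the 74 genes (62.2%), against 56.8% of all tested genes. All 36 called genes were among the 46, a separation that a call on the same values makes likely.

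Counted as probe sets, 113 of the 127 lay above the signal filter, and 39 of them were called higher and 14 lower. The corresponding shares over all tested probe sets were 25.6% and 21%. At least 2-fold changes among them were 3 rises and 0 falls, beside 2.21% and 1.21% of all tested probe sets. The groups did not overlap in 70 of the 113, or 61.9%, against 56.6% of all tested probe sets. The 14 probe sets below the filter belonged to Mrpl1, Mrpl3, Mrpl11, Mrpl15, Mrpl17, Mrpl19, Mrpl21, Mrpl33, Mrpl34, Mrpl41, Mrpl42, Mrpl52 and Mrps11, and none was called when the filter was dropped. Each of these genes had at least 1 other probe set above the filter.

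The split between directions depended on how arrays were scaled to each other. After quantile normalization 19 genes were called higher and 10 lower, beside 19.7% and 25.3% of all genes. After centring each array on its median, 17 were called higher and 17 lower, beside 16.5% and 31.9%. The median log2 fold change of the family was 0.07 and 0.02 in these settings, while that of all genes was -0.04 and -0.08. The 19 genes were all among the 27, and 17 of the 27 and all of the 9 kept their call in both settings.

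**Figure D1:**
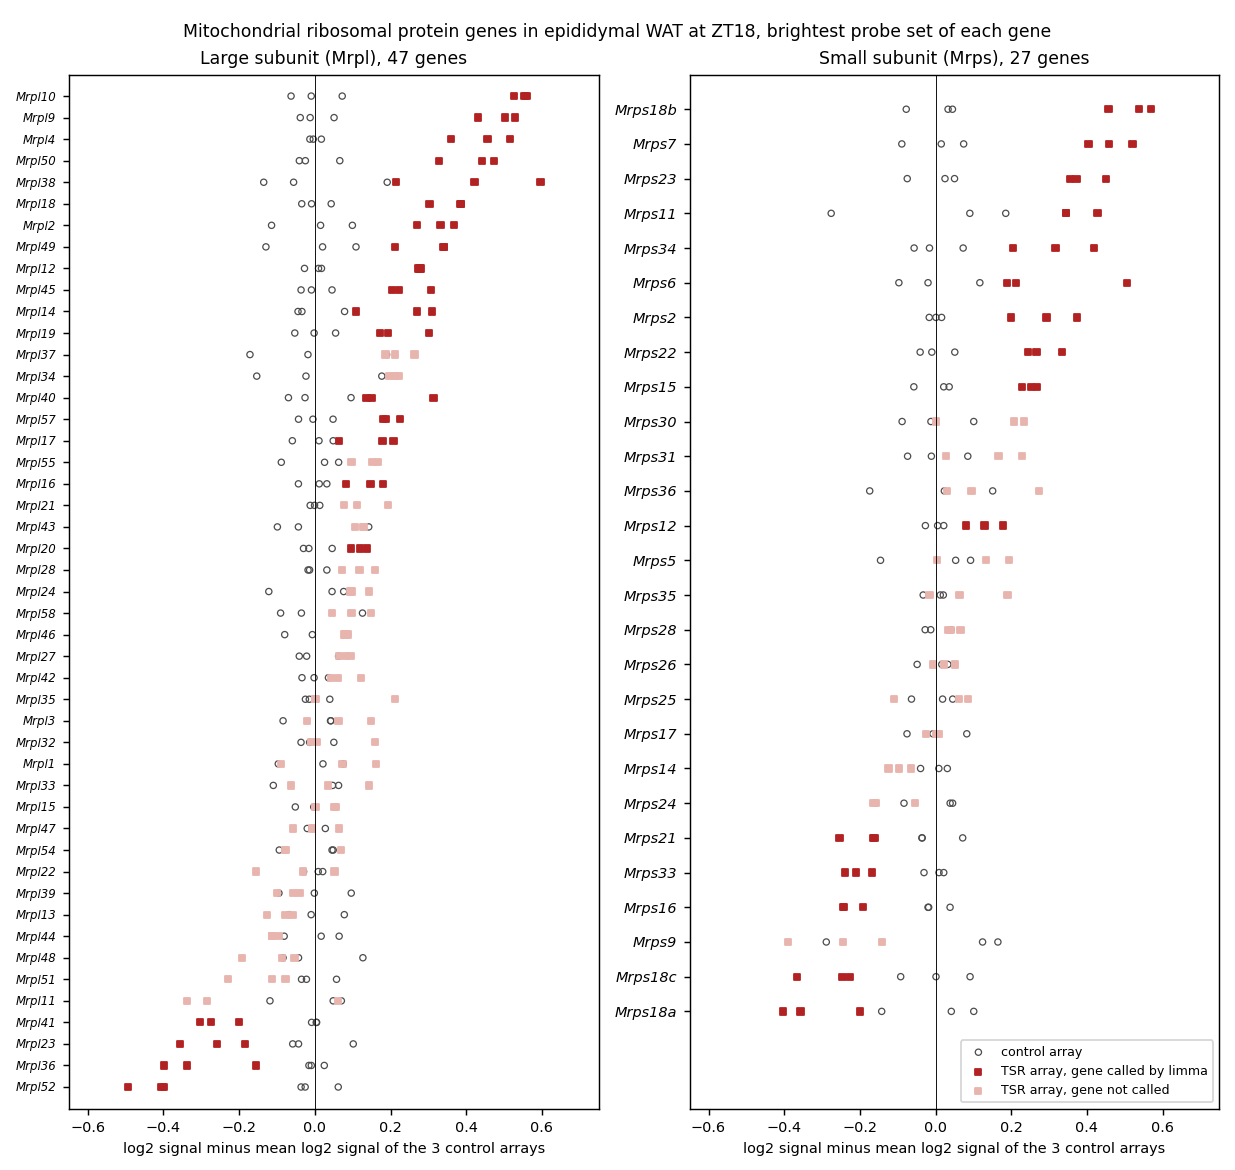
Log2 signal of the brightest probe set of each of the 74 genes in every array, minus the mean of its 3 control arrays (x axis), with genes ordered by change; circles are control arrays, squares TSR arrays, and dark squares mark genes called by limma. Most genes lie within 0.5 of 0, the 27 genes called higher reach 0.55 and the 9 called lower reach -0.43.

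Other measures of the tissue differed between the same groups. Of 33 hepatocyte markers on the array 32 had a higher mean after TSR, 17 of the 18 tested were called higher (median log2 fold change 3.49), and 8 of the 33 were under the 25th percentile of signals in each control array. The exception was Cyp2e1, which was lower (-0.42, not called after quantile normalization) and carried most of the list's control signal. The summed signal of the list was 16481 to 20242 in control and 27341 to 30911 in TSR arrays, and without Cyp2e1, left out after its values were seen, it was 1476 to 1637 and 16377 to 16922. Of 13 tested macrophage markers 12 were called lower, with summed signals of 28015 to 29029 in control and 18826 to 19176 in TSR arrays. All 12 adipocyte markers on the array were above that percentile in every array, with 4 called higher and 5 lower (5 higher and 0 lower after quantile normalization), and their sum was 96242 to 113441 in control and 84344 to 97960 in TSR arrays. Both tested skeletal muscle markers, Acta1 and Myl1, were called higher (median 1.42), also after quantile normalization and median centring, and the sum of the 8 on the array was 1564 to 1681 in control and 3555 to 3730 in TSR arrays. Of 5 tested brown adipocyte markers 2 were called higher and 1 lower, and the sum of the 7 on the array was 310.3 to 334.3 in control and 477.2 to 525.7 in TSR arrays. For beta-actin, control probe sets give a measure of RNA integrity, and the 5′ reading minus the 3′ reading was -1.22 ± 0.01 (SD, n = 3) in control and -0.67 ± 0.0013 (SD, n = 3) in TSR arrays on the log2 scale, and for Gapdh it was -0.52 ± 0.07 and 0.13 ± 0.05. The part of these differences in the values of the family was not tested. In whole tissue, fewer cells of a type and less RNA per cell cannot be told apart.

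The large and small subunits had nearly the same median change. In the large subunit 17 of 47 genes were called higher and 4 lower, and in the small subunit 10 of 27 were called higher and 5 lower. The median log2 fold change was 0.11 in both. After quantile normalization the counts were 11 and 5 for the large and 8 and 5 for the small subunit, with medians of 0.07 and 0.03. After median centring they were 10 and 9 for the large and 7 and 8 for the small subunit, with medians of 0.02 in both. As shares these were 21.3% higher and 19.1% lower for the large and 25.9% and 29.6% for the small subunit. Of all tested genes 24% were called higher and 23% lower in the deposited signals. The shares of all genes were 19.7% and 25.3% after quantile normalization, and 16.5% and 31.9% after median centring. The count of large subunit genes called higher was 10 without control array 1 or control array 3 and 11 without TSR array 2. In these fits 22.2%, 22.6% and 21.9% of all tested probe sets were called higher, against 25.6% in the main fit.

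The median deviation of the large subunit genes from their control means was -0.01, 0.04 and -0.02 in control arrays 1, 2 and 3 and 0.09, 0.14 and 0.10 in TSR arrays 1, 2 and 3. For the small subunit it was 0.005, 0.03 and -0.04 in the control arrays and 0.03, 0.09 and 0.09 in the TSR arrays. The TSR arrays thus lay above all control arrays for the large subunit, whereas for the small subunit TSR array 1 lay slightly below control array 2. After quantile normalization the large subunit still showed no overlap, with 0.07, 0.12 and 0.07 in the TSR arrays, and the small subunit overlapped, with -0.01, 0.04 and 0.03. After median centring both subunits overlapped between groups.

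**Figure D2:**
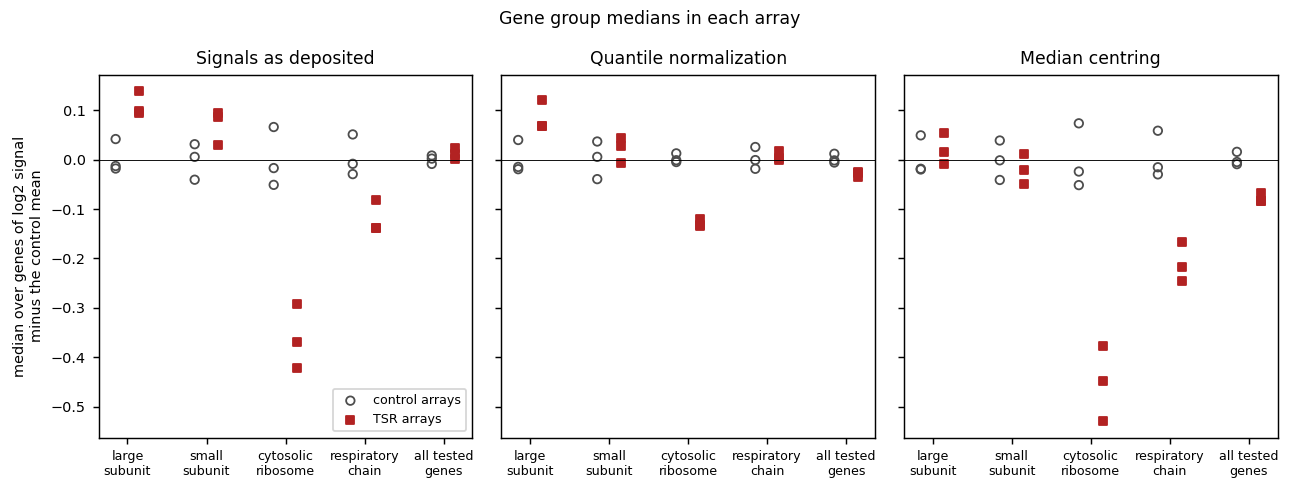
Median over the genes of a group of the log2 signal minus the gene's control mean (y axis) in each array, for signals as deposited, after quantile normalization and after median centring; circles are control and squares TSR arrays. The large subunit is above its control arrays in the first and second panel, and the cytosolic ribosomal proteins are below theirs in all 3.

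The names of the subunits follow an older numbering, and by structure Mrps18a and Mrps30 sit in the large subunit while Mrps36 belongs to the oxoglutarate dehydrogenase complex and not to the ribosome. Counted by structure, 17 of 49 large subunit genes were called higher and 5 lower, and 10 of 24 small subunit genes were called higher and 4 lower. After quantile normalization these counts were 11 and 6 for the large and 8 and 4 for the small subunit. After median centring they were 10 and 10 for the large and 7 and 7 for the small subunit. Genes with a bacterial counterpart numbered 44, and 18 were called higher and 6 lower (median log2 fold change 0.11). Of 30 genes classed by their number as without a bacterial ribosomal counterpart, Mrps36 among them, 9 were called higher and 3 lower, with the same median of 0.11. After quantile normalization 11 genes with a bacterial counterpart were called higher and 6 lower, and 8 and 4 of those without. After median centring the counts were 10 and 11 with a counterpart, and 7 and 6 without. Of all tested genes 24% were called higher and 23% lower in the deposited signals. These shares were 19.7% and 25.3% after quantile normalization, and 16.5% and 31.9% after median centring. These are descriptions, and no test of one class against the other was made.

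Promoters are shown for Mrpl9, which had the highest log2 fold change of any tested large subunit probe set, and for the 3 paralogues Mrps18a, Mrps18b and Mrps18c, which were called in both directions. The windows run from 250 bases before to 50 bases after the annotated start, 300 bases in all, and come from RefSeq (GRCm38.p6), 5′ to 3′ on the strand of the gene. The 4 genes were chosen after their values were seen. Capitals mark matches to GCGCA and GCGC with any 1 base between them (the motif of NRF1, a regulator of nuclear genes for mitochondria), CCGGAAG (the core bound by ETS factors such as GABPA), AAGATGGCG (YY1) and CACGTG (the E-box of bHLH factors such as the clock proteins), each searched on both strands, so that CCGGAAG may appear as CTTCCGG. Mrpl9 lies at chr3:94443086-94443385 (+ strand), Mrps18a at chr17:46110754-46111053 (+ strand), Mrps18b at chr17:35916391-35916690 (- strand) and Mrps18c at chr5:100798509-100798808 (+ strand).
Mrpl9: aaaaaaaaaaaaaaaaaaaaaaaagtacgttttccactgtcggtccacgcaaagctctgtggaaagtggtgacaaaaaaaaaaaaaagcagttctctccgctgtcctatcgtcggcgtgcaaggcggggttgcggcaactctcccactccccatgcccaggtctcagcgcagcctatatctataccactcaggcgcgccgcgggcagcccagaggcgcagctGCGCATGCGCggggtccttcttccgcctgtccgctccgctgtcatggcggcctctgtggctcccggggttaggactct
Mrps18a: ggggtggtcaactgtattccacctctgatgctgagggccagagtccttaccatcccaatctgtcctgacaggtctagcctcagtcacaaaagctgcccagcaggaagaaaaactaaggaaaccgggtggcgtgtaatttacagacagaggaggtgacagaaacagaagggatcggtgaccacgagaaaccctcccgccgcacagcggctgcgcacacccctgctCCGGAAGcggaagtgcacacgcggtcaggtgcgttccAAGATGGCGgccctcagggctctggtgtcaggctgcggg
Mrps18b: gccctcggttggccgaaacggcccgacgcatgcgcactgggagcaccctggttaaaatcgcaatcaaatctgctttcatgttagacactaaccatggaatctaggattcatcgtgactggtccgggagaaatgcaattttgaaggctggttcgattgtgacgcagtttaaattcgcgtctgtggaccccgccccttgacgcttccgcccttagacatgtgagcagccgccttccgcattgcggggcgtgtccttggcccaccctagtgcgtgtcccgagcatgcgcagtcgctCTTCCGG
Mrps18c: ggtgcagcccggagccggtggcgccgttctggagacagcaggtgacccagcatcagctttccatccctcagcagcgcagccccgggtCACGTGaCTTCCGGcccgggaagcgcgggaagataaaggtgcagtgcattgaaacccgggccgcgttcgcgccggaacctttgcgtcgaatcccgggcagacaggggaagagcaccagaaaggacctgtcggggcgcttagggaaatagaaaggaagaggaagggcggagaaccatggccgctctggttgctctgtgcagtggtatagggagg

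In these windows Mrpl9 holds an NRF1 match, which reads as a match on both strands, Mrps18a an ETS and a YY1 match, Mrps18b an ETS match and Mrps18c an E-box next to an ETS match. RefSeq windows were found for 65 of the 74 genes, and not for Mrpl4, Mrpl13, Mrpl15, Mrpl19, Mrpl38, Mrpl54, Mrps28, Mrps34 and Mrps35. An ETS match was present in 24 of the 65 (36.9%), against 12.9% of 17491 protein-coding genes and 9.93% of all 27025 genes with a window. NRF1 matches were present in 12 (18.5%, against 7.17% and 5.19%) and YY1 matches in 7 (10.8%, against 2.14% and 1.64%). At least 1 of these 3 motifs was found in 38 genes (58.5%, against 19.96% and 15.1%). E-boxes were found in 5 genes (7.69%), beside 8.91% of protein-coding and 8.09% of all genes. Of the 23 genes with a window that were called higher, 6 held an NRF1, 7 an ETS and 1 a YY1 match, and of the 9 called lower, 1 held an NRF1, 6 an ETS and 2 a YY1 match. A match describes the letters of the window and not a bound site.

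The 3 Mrps18 paralogues, which all derive from the bacterial protein S18, did not move together. Mrps18b, a small subunit protein, had signals of 712, 706 and 654 in control and 1024, 947 and 1002 in TSR arrays (1.44-fold, log2 fold change 0.52 ± 0.06 SE, limma adjusted p = 1.1e-04). Mrps18a, the paralogue of the large subunit, had 1430, 1372 and 1208 in control and 1041, 1008 and 1161 in TSR arrays (0.801-fold, -0.32 ± 0.08 SE, adjusted p = 0.0081). Mrps18c, the other small subunit paralogue, had 1668, 1776 and 1564 in control and 1406, 1426 and 1294 in TSR arrays (0.824-fold, -0.28 ± 0.06 SE, adjusted p = 0.0052). Control and TSR arrays did not overlap in any of the 3, although control array 3 and TSR array 3 came close in Mrps18a, whose call was lost with the methods' t-test named in the study (adjusted p = 0.073). Mrps18b was the paralogue that rose, and its direction and those of Mrps18a and Mrps18c were kept after quantile normalization and median centring.

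In the large subunit, proteins of the stalk, where translation factors dock, were led by Mrpl10. Its signals were 650, 614 and 592 in control and 911, 891 and 907 in TSR arrays (1.46-fold, log2 fold change 0.55 ± 0.05 SE, adjusted p = 6.0e-05). Mrpl12, which Mrpl10 anchors to the ribosome, had 1519, 1527 and 1480 in control and 1829, 1824 and 1831 in TSR arrays (1.21-fold, 0.28 ± 0.04 SE, adjusted p = 5.8e-04). Both genes were separated between groups by far more than the spread within them. Mrpl11, at the base of the stalk, overlapped between groups, with 1590, 1416 and 1614 in control and 1262, 1603 and 1216 in TSR arrays (log2 fold change -0.19, adjusted p = 0.16). Without TSR array 2 its log2 fold change was -0.31 and it was called (adjusted p = 0.0082), and it was also called after median centring.

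Mrpl9, whose promoter is shown above, rose in both of its probe sets. The brighter had 690, 721 and 678 in control and 938, 1005 and 986 in TSR arrays (1.40-fold, log2 fold change 0.49 ± 0.05 SE, adjusted p = 1.0e-04). The dimmer had 91.9, 105 and 90.5 in control and 196, 208 and 200 in TSR arrays (2.10-fold, 1.08 ± 0.11 SE, adjusted p = 7.2e-05). Neither overlapped between groups. Mrpl1 and Mrpl3, relatives of the bacterial proteins L1 and L3, were not called, with log2 fold changes of 0.05 and 0.06 and overlapping groups, and both signs turned after median centring.

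Genes around the exit tunnel of the nascent chain went in different directions. Mrpl45, which holds the ribosome at the inner membrane, had 662, 637 and 625 in control and 739, 794 and 748 in TSR arrays (log2 fold change 0.24 ± 0.05 SE, adjusted p = 0.0052). Mrpl23 had 1459, 1630 and 1474 in control and 1270, 1336 and 1186 in TSR arrays (-0.27 ± 0.06 SE, adjusted p = 0.0073), a call lost with the methods' t-test (adjusted p = 0.056). The groups were separate in both. Mrpl24 was not called (0.11, adjusted p = 0.14), and Mrpl44 was not called either (-0.11, adjusted p = 0.11) but was called lower after quantile normalization (adjusted p = 0.048) and after median centring. These values are of the brightest probe set of Mrpl44, and the dimmest had the other sign and was not called (0.13).

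Of the central protuberance, the crest of the large subunit, 4 genes were followed. Mrpl38 had 281, 334 and 266 in control and 339, 392 and 442 in TSR arrays (log2 fold change 0.41 ± 0.12 SE, adjusted p = 0.018). Its lowest TSR signal was just above its highest control signal, and it was not called without control array 1 (adjusted p = 0.058), control array 3 (0.059) or TSR array 3 (0.061), nor with the methods' t-test (0.11). These values are of the brighter probe set of Mrpl38, and the dimmer one was not called (-0.02). Mrpl40 had a log2 fold change of 0.20 (adjusted p = 0.037) that was not called after quantile normalization (0.15, adjusted p = 0.10) or median centring (0.11), nor without control array 1, control array 3, TSR array 1 or TSR array 2 (adjusted p from 0.056 to 0.12). Mrpl46 and Mrpl48 were not called, with log2 fold changes of 0.08 and -0.11, though Mrpl48 was called lower after median centring.

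The 4 large subunit genes called lower were Mrpl52, Mrpl36, Mrpl23 and Mrpl41. Mrpl52, a protein with no bacterial relative, had the largest fall of the family, from 1564, 1662 and 1553 in control to 1130, 1208 and 1202 in TSR arrays (0.741-fold, log2 fold change -0.43 ± 0.05 SE, adjusted p = 1.6e-04), and its other 2 tested probe sets were also called lower. Mrpl36, a very small protein with a bacterial relative, had 595, 581 and 578 in control and 444, 463 and 525 in TSR arrays (-0.30 ± 0.07 SE, adjusted p = 0.0082). Mrpl41, found only in mitochondria, had 1985, 1986 and 1968 in control and 1723, 1637 and 1603 in TSR arrays (-0.26 ± 0.04 SE, adjusted p = 0.0014). The groups did not overlap in any of them, and these calls held after quantile normalization and median centring. The values of Mrpl41 are of its brighter probe set, and its dimmer tested one was not called (-0.11).

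In the small subunit, Mrps12 of the decoding centre, where codon and anticodon pair, had 1205, 1218 and 1178 in control and 1268, 1358 and 1313 in TSR arrays (log2 fold change 0.13 ± 0.05 SE, adjusted p = 0.043). This call was lost after quantile normalization (adjusted p = 0.12), after median centring (0.53) and without any one of the 6 arrays (adjusted p from 0.052 to 0.13). Mrps5, a relative of bacterial S5, was not called (0.11, adjusted p = 0.30). Mrps22, which has no bacterial relative, had 638, 611 and 598 in control and 776, 741 and 729 in TSR arrays (0.28 ± 0.05 SE, adjusted p = 0.0024), with no overlap.

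Mrps23, also found only in mitochondria, had 297, 228 and 288 in control and 447, 436 and 416 in TSR arrays in its dimmer probe set (1.60-fold, log2 fold change 0.69 ± 0.10 SE, adjusted p = 7.4e-04), and 0.39 in its brighter one. Among genes called lower, Mrps16, a relative of bacterial S16, had 1563, 1626 and 1562 in control and 1336, 1386 and 1339 in TSR arrays (0.855-fold, -0.23 ± 0.04 SE, adjusted p = 0.0026). The groups were clearly apart in both. The small subunit genes called lower also included Mrps33 (-0.21) and Mrps21 (-0.19), named after their values were seen. Mrps30 and Mrps36 were not called, with log2 fold changes of 0.15 and 0.13 and overlapping groups, and Mrps30 was called higher without TSR array 3 (0.22, adjusted p = 0.039).

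Several of the largest rises came from dim probe sets of genes whose brighter probe set moved less. Among 27 members with at least 2 tested probe sets the dimmest had the higher log2 fold change in 20 (74.1%), beside 69.2% of 3236 such genes on the array, with a median difference of 0.14 beside 0.16. No member had probe sets called in opposite directions, against 202 of the 3236 genes (6.24%). Signs differed between the probe sets of 6 members, Mrpl11, Mrpl38, Mrpl39, Mrpl44, Mrpl51 and Mrps14.

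Mrps2 shows this spread. Its dim probe set had 39.6, 62.3 and 34.4 in control and 106, 103 and 100 in TSR arrays (2.26-fold, log2 fold change 1.23 ± 0.22 SE, adjusted p = 0.0021), the largest rise in the family, whereas the bright one had 684, 700 and 692 in control and 848, 896 and 794 in TSR arrays (0.29, adjusted p = 0.0030). Both were separate between groups, and the control values of the dim one spread widely, from 34.4 to 62.3. Mrps14, a protein of the head of the small subunit, had 179, 104 and 139 in control and 305, 232 and 319 in TSR arrays in its dim probe set (2.03-fold, 1.04 ± 0.20 SE, adjusted p = 0.0026), and was not called by its bright one (-0.10). The call of the dim set was lost with the methods' t-test on log2 signals (adjusted p = 0.0509) and kept on linear signals. Mrps14 is counted as not called because its bright probe set was not called, and its direction differs between probe sets.

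Mrpl51 gave 3 different readings. Its dimmest probe set had 36.7, 38.1 and 25.7 in control and 49.3, 90.2 and 60.9 in TSR arrays (log2 fold change 0.97 ± 0.27 SE, adjusted p = 0.017), a call lost without control array 3 (0.79, adjusted p = 0.052) or TSR array 2 (0.73, adjusted p = 0.064) and with the methods' t-test (adjusted p = 0.12). The middle one had 151, 162 and 151 in control and 236, 235 and 228 in TSR arrays (0.59 ± 0.08 SE, adjusted p = 5.9e-04). The brightest had 3990, 3954 and 4215 in control and 3454, 3744 and 3839 in TSR arrays and was not called (-0.14 ± 0.05 SE, adjusted p = 0.054).

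In Mrpl19 the probe sets differed in size but not in direction. The dimmer one had 206, 204 and 204 in control and 289, 329 and 346 in TSR arrays (1.57-fold, log2 fold change 0.65 ± 0.09 SE, adjusted p = 3.9e-04), and the brighter one changed by 0.22 (adjusted p = 0.023). Mrps9, a protein of the small subunit head, had 4 tested probe sets, of which 2 were called lower. One of these had 278, 239 and 266 in control and 201, 209 and 200 in TSR arrays (-0.36 ± 0.09 SE, adjusted p = 0.0087). The other had 157, 141 and 163 in control and 118, 108 and 130 in TSR arrays (-0.37 ± 0.12 SE, adjusted p = 0.028), a call lost without control array 1 or 3 or TSR array 1 or 2 (log2 fold change from -0.37 to -0.31, adjusted p from 0.073 to 0.088). Its brightest probe set was not called (-0.26), so that Mrps9 is not among the 9 genes called lower.

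**Figure D3:**
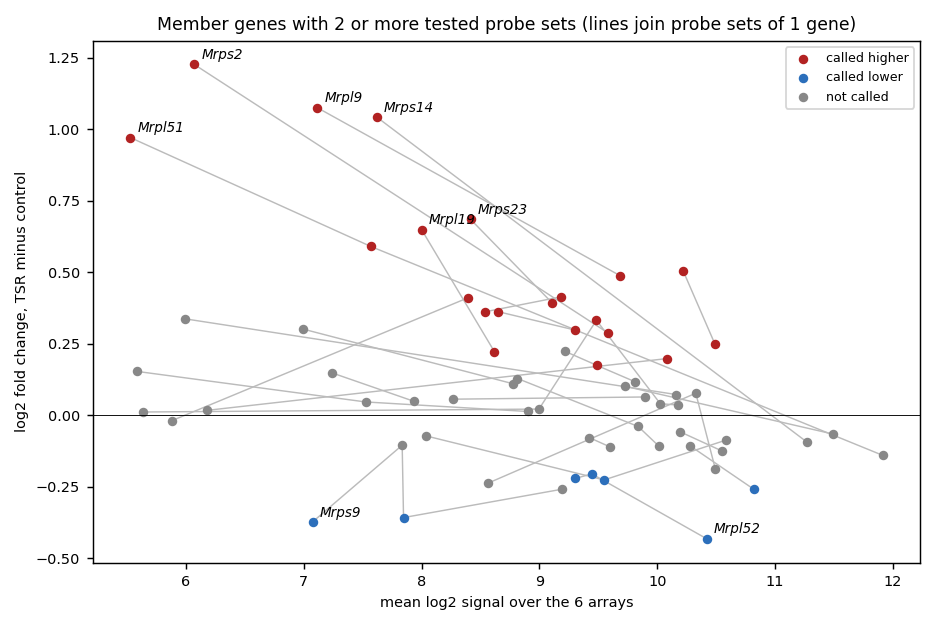
Log2 fold change, TSR minus control (y axis), against the mean log2 signal over the 6 arrays (x axis) for the tested probe sets of the 27 members with at least 2 of them; lines join probe sets of 1 gene and colours give the limma call. The steep lines of Mrps2, Mrps14, Mrpl51 and Mrpl9 run from dim probe sets with rises of about 1 to bright ones with smaller changes.

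Members were set beside the gene families closest to them, and beside 24% of all tested genes called higher and 23% lower. Of 47 tested cytosolic ribosomal protein genes 2 were called higher and 38 lower, and the median log2 fold change was -0.37. After quantile normalization it was -0.13, with 2 called higher and 24 lower, and after median centring -0.46, with 2 higher and 41 lower. Of 87 tested nuclear genes of the respiratory chain and ATP synthase 10 were called higher and 38 lower (median -0.13), with 17 in each direction after quantile normalization (median 0.00) and 2 higher and 48 lower after median centring (median -0.22). The mitoribosome thus had more genes called higher than lower in the deposited signals, and both other families more called lower, a contrast that was not tested. Per array, the median deviation of the cytosolic family was -0.37, -0.29 and -0.42 in TSR arrays 1, 2 and 3, against -0.02, 0.07 and -0.05 in the control arrays, and the groups did not overlap in any of the 3 scalings.

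Neighbouring start sites gave a further description. A head-to-head gene, on the other strand with its start within 1000 bases, was found for 24 of the 65 members (36.9%), against 13.1% of protein-coding genes. Mrpl46 and Mrps11 are such a pair, with starts 42 bases apart, and Mrps11 was called higher (0.37) while Mrpl46 was not (0.08). Mrps11 was no longer called after quantile normalization (0.28, adjusted p = 0.0762) or median centring, and the difference within the pair was not tested. Both partners were tested for 12 of the 24 members, with Mrpl46 and Mrps11 each counted, and both were called for 4. Over all tested genes 47% were called in either direction, and a share over all head-to-head pairs is not given here. Mrps12 and Sars2, the mitochondrial seryl-tRNA synthetase, Mrpl14 (0.23) and Tmem63b (0.62), and Mrpl40 and Hira (0.42) were each called higher in both partners, and Mrpl49 was higher (0.30) while Fau, which encodes a cytosolic ribosomal protein, was lower (-0.43). Mrps12, Mrpl14 and Mrpl40 were not called after quantile normalization or median centring, while Sars2, Tmem63b, Hira, Mrpl49 and Fau kept their calls under both.

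Other genes of mitochondrial gene expression were read from lists. Beside them, 24% of all tested genes were called higher and 23% lower, and 19.7% and 25.3% after quantile normalization. Of 6 further subunit symbols 4 were found, while Ict1 is an older name of Mrpl58. Gadd45gip1 (0.39) and Ptcd3 (0.20) were called higher, Chchd1 lower (-0.15), and Dap3 was not called (0.04). Ptcd3 was not called after quantile normalization (0.15). Of 11 tested mitochondrial translation factors 7 were called higher and 0 lower (median log2 fold change 0.29), and after quantile normalization 3 were called higher and 0 lower. Pdf, which removes the formyl group from new chains, had 508, 534 and 417 in control and 726, 740 and 734 in TSR arrays (0.60 ± 0.09 SE, adjusted p = 6.5e-04). Oxa1l, which inserts new chains into the inner membrane, changed by 0.57 and Pde12, which trims poly(A) tails, by 0.50, and both were called. The elongation factor Tufm changed by 0.31 (adjusted p = 0.033) and was not called after quantile normalization.

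Among 13 tested genes of mitochondrial aminoacyl-tRNA synthesis 6 were called higher and 1 lower, beside 24% and 23% of all tested genes. The counts were 5 and 1 after quantile normalization, beside 19.7% and 25.3%. Sars2 had 41.0, 50.8 and 54.0 in control and 87.9, 94.0 and 72.9 in TSR arrays (log2 fold change 0.81 ± 0.18 SE, adjusted p = 0.0059), and Gatb and Gatc, subunits of the enzyme that makes glutaminyl-tRNA, changed by 0.73 and 0.32. Hars2, the histidyl-tRNA synthetase, was lower (-0.30). The 6 include Kars and Gars, whose products also serve the cytosol. Gars was not called after quantile normalization (0.08).

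Of 34 tested genes of mitochondrial transcription, RNA processing and ribosome assembly 12 were called higher and 3 lower, beside 24% and 23% of all tested genes. The counts were 11 and 3 after quantile normalization, beside 19.7% and 25.3%. Mrm3, which methylates the large ribosomal RNA, had 185, 192 and 200 in control and 344, 346 and 320 in TSR arrays (log2 fold change 0.81 ± 0.08 SE, adjusted p = 5.7e-05). Fastk changed by 0.70 and the assembly GTPase Mtg2 by 0.63, and Ngrn, which is needed for the large ribosomal RNA, was lower (-0.37). The mitochondrial transcription factor Tfam (-0.03) and the RNA polymerase Polrmt (-0.001) were not called, and their groups overlapped.

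Regulators of mitochondrial biogenesis were called in both directions, 5 higher and 4 lower of 11, beside 24% and 23% of all tested genes. The counts were 4 and 4 after quantile normalization, beside 19.7% and 25.3%. Ppargc1a, the coactivator PGC-1alpha, had 153, 178 and 172 in control and 350, 338 and 344 in TSR arrays (log2 fold change 1.04 ± 0.08 SE, adjusted p = 2.4e-05). Its partner receptor Esrra changed by 0.79 and the related coactivator Pprc1 by 0.66. Lower were Myc (-0.78), the deacetylase Sirt1 (-0.55), and the promoter-binding factors Gabpa (-0.30) and Yy1 (-0.27). Nrf1 was not called (-0.15, adjusted p = 0.28).

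**Figure D4:**
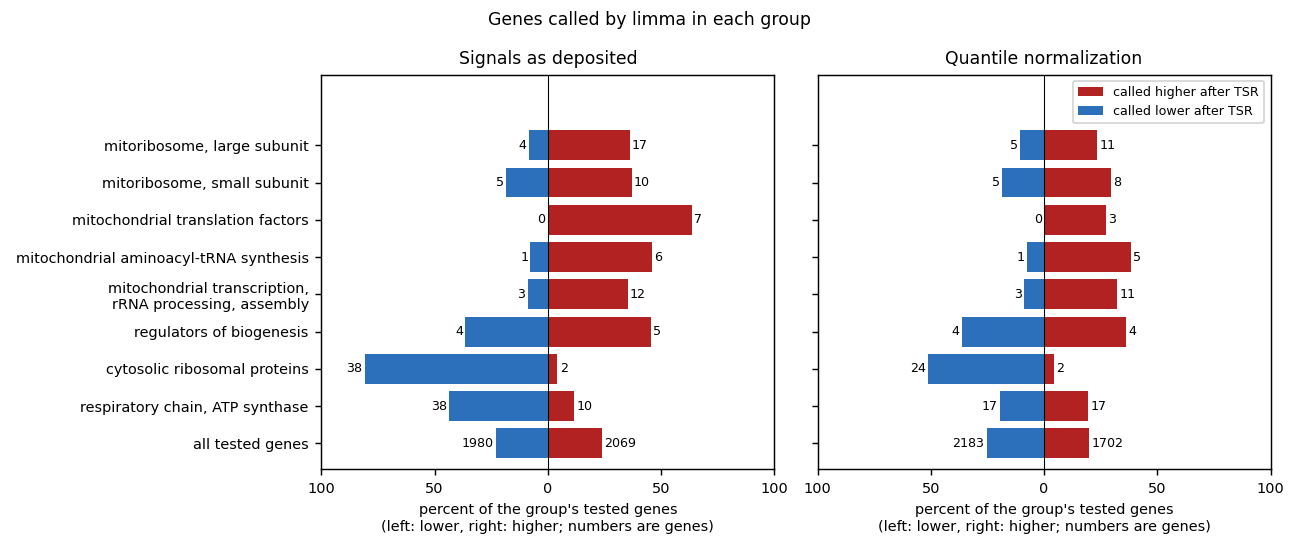
Percent of the tested genes of each group called lower (bars to the left) and higher (bars to the right) after TSR by limma, for signals as deposited and after quantile normalization; numbers beside the bars count genes. Both mitoribosome subunits have longer bars to the right (17 and 4 genes, 10 and 5 genes), and the cytosolic ribosomal proteins a longer bar to the left (2 and 38 genes).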

How the data were processed

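Each of the 6 samples of epididymal WAT, 3 per group, had 1 array. The authors derived MAS5 signals with Expression Console of Affymetrix (version not given in the sources used here), and the deposited values are these intensities on a linear scale. The methods name RNAlater and a lipid tissue kit, whereas the sample labels name liquid nitrogen and Trizol. Array medians lay between 127 and 141. Precision is limited by the number of arrays.

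Intensities were taken to log2 with no further scaling. The 64 control probe sets and the 35% of the others with the lowest mean log2 signal (below 5.45) were left out, since expression calls, which the methods used, were not used. A fit over the other 14707 probe sets was made with limma 3.58.1 in R 4.3.3 (two-sided, with an intensity trend and 4.86 prior degrees of freedom), and p-values were adjusted by Benjamini-Hochberg. The median within-group SD was 0.10 on the log2 scale. Folds are ratios of mean signals. Probe sets were assigned to genes by GEO's platform annotation, and all 127 members were found in RefSeq, with 0 symbols that differ. Suffixes of the 113 tested were _at (64), _a_at (31), _s_at (6) and _x_at (12), and those other than _at may read further transcripts.

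Named members were the 8 largest rises and 8 largest falls among called probe sets with no overlap, any gene with opposite calls, and genes listed for their role. From each list up to 3 called genes with the largest change were named, together with Tfam, Polrmt, Tufm, Ppargc1a, Nrf1 and Gabpa. The members, lists and alternatives were chosen with earlier results of these data known. Genes shown for their head-to-head neighbours, and Dap3, Kars, Gars, Hars2, Ngrn, Pprc1, Sirt1 and Yy1, were named after their values were seen. Alternatives were the methods' t-test on linear and log2 signals, limma with no trend, quantile normalization of the log2 signals, centring of each array on its median, the filter dropped or raised to 50%, a floor at each array's 25th percentile, a block for the replicate number, omission of single arrays, averaging over the probe sets of a gene, and use of suffix _at alone. The computation was tested on simulated data.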

Additional observations from a re-analysis of the deposited data

How the results depend on the processing

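The named probe sets included the largest changes among called sets with no overlap, so their counts were partly fixed by that choice. These counts do not describe the family. There, 17 of the 27 genes called higher and all 9 called lower kept the call after quantile normalization and median centring. Over all tested probe sets 46.6% were called in the main fit. Of the 35 named probe sets 25 were called, 17 of them kept the call under every alternative, and 0 changed direction. Signs turned for 3 that were not called, with log2 fold changes of -0.044 for Mrpl1 after quantile normalization, -0.041 after median centring and between -0.0076 and 0.118 without single arrays, and of -0.026 for Mrpl3 and -0.0083 for Mrpl46 after median centring.

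With suffix _at alone 24 of 64 member probe sets were called higher and 7 lower, against 39 and 14 of 113. The share over all probe sets of that suffix is not given here. Member probe sets called lower were 9 with the methods' t-test on linear or log2 signals and 25 after median centring. Beside these, 15.7%, 15.6% and 28.8% of all tested probe sets were called lower. Genes called higher were 17 and lower 17 after median centring, against 27 and 9. Large subunit genes called higher were 11 with the t-test on linear signals, 11 after quantile normalization and 10 after median centring, against 17, and between 10 and 19 without single arrays. In the t-test, quantile and centring settings 19.8%, 21.1% and 18.2% of all tested probe sets were called higher, against 25.6%. Large subunit genes called lower were 9 after median centring, against 4. Small subunit genes called higher were 5 with suffix _at alone, against 10, and those called lower were 8 after median centring and 3 with suffix _at alone, against 5. Without single arrays the count of genes called higher was between 18 and 28 and of those called lower between 9 and 10. Of all tested probe sets 20.9% to 24.1% were called higher and 17.2% to 19.3% lower in these fits. The cause of these shifts was not tested. The suffix setting holds fewer probe sets than the main fit.

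Median log2 fold changes were 0.0665 after quantile normalization and 0.0210 after median centring for the family, 0.0681 and 0.0218 for the large subunit, and 0.0274 and 0.0202 for the small subunit, against 0.11 in each. The small subunit median was between 0.0667 and 0.140 without single arrays. The large minus small difference of medians was 0.0016 in the deposited signals, 0.0407 after quantile normalization, -0.0144 with averaged probe sets, 0.0298 with suffix _at alone and between -0.0467 and 0.0303 without single arrays.

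Deviations of same-numbered arrays correlated with r of 0.02, 0.19 and 0.17, and those of differently numbered arrays with r from -0.22 to 0.06. These values do not settle whether replicate numbers pair the samples, and the main fit did not pair them. With the replicate number as a block, small subunit genes called lower were 8, against 5, and the genes called higher and lower were 29 and 13. Over all tested probe sets 27.5% were then called higher and 23.1% lower, against 25.6% and 21%. The filter on mean log2 signal left out 14 member probe sets, and none of these was called when the filter was dropped.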
